A study of Mus musculus with 12 samples.

Results

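The simple-epithelium keratins Krt7, Krt8, Krt18, Krt19, Krt20 and Krt23 were followed through 12 mouse tumors by RNA sequencing. These 6 genes were chosen by name from the 22630 genes of the deposited files and all 6 were measured in every tumor and passed the filter on low counts. The tumors were grown under the skin from KCip53-1, a pancreatic cancer cell line derived from a mouse that carried Ptf1a-Cre, TREp53R270H and R26rtTa/rtTa. Cre driven by Ptf1a, which is active in pancreatic epithelium, switches on the transactivator rtTa, and rtTa induces mutant p53R270H together with the fluorescent protein dsRed when doxycycline (dox) is given. All 3 groups carried every one of these alleles and are set apart in the labels by dox. Whether mice without dox drank sucrose is not given in the sources used here. The 4 no-dox tumors never received it, the 4 plus-dox tumors received 0.2 g/l dox in drinking water with 5% sucrose for 36 days, and the 4 off-dox tumors received it for 33 days followed by 3 days without it. The hosts were immunodeficient NSG mice aged 8 to 10 weeks, which retain myeloid cells, and each received 500000 cells per tumor. KCip53-1 is a single line sorted for dsRed, each mouse carried 2 tumors, and the sources used here do not say which of them came from the same mouse, so p-values measure the spread between tumors taken as independent.

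Keratins are the intermediate filament proteins of epithelia. A filament is built from heterodimers of a basic type II and an acidic type I keratin, so each cell that forms filaments needs members of both classes, and an unpaired keratin is degraded. Krt8 (type II) and Krt18 (type I) are the first keratins of the embryo and the main pair of simple, single-layered epithelia such as the pancreas and liver. Krt7 (type II) and Krt19 (type I) are typical of duct cells, including those of the pancreas, Krt20 (type I) marks intestinal and gastric surface cells and urothelium, and Krt23 (type I) is a less studied keratin of glandular and gut epithelia.

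In the mm9 genome build, both type II genes lie in the keratin cluster of chromosome 15, Krt7 at chr15:101242834-101258237 on the plus strand and Krt8 at chr15:101827142-101834773 on the minus strand. Krt18 lies beside Krt8 at chr15:101858647-101862457 on the plus strand, apart from the other type I genes. The starts of Krt8 and Krt18 face away from each other across 23873 bases, with 0 genes of the files between them. Krt19 (chr11:100002126-100007233), Krt20 (chr11:99289717-99299467) and Krt23 (chr11:99339287-99354424) lie on the minus strand in the type I cluster of chromosome 11. In the GENCODE annotation of the same build, the genes have 9 exons (Krt7 and Krt8), 8 exons (Krt20 and Krt23), 7 exons (Krt18) and 6 exons (Krt19), and their coding sequences span 403 codons (Krt19) to 490 codons (Krt8).

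The 250 bases before the gene start are shown for the head-to-head pair Krt8 and Krt18, whose levels ran together, and for Krt7 and Krt20, which followed a different course over the tumors although one is type II and the other type I. Capitals mark matches on either strand to the TATAAA box, to GGGCGG (GC box, bound by Sp1-type factors), to TGANTCA, the AP-1 site, to CACCTG (the E box bound by Zeb and Snail repressors) and to the p53 decamer. The windows are the plus strand at chr15:101858397-101858646 for Krt18 and chr15:101242584-101242833 for Krt7, and the minus strand at chr15:101834774-101835023 for Krt8 and chr11:99299468-99299717 for Krt20, all in mm9 and written 5′ to 3′ toward the gene.
Krt8: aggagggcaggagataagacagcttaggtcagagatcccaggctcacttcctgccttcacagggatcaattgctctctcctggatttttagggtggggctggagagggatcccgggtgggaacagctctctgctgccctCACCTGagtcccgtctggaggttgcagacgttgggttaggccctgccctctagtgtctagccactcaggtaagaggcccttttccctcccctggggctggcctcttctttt
Krt18: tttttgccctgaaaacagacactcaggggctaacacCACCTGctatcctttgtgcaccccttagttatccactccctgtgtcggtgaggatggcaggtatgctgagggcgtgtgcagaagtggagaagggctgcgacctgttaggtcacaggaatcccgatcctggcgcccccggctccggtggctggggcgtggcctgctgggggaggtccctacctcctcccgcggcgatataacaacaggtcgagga
Krt7: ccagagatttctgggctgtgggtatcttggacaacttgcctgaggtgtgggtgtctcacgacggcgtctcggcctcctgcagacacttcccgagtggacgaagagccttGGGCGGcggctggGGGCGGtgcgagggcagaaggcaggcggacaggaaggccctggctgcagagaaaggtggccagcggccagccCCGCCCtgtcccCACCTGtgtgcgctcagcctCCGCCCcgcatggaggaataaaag
Krt20: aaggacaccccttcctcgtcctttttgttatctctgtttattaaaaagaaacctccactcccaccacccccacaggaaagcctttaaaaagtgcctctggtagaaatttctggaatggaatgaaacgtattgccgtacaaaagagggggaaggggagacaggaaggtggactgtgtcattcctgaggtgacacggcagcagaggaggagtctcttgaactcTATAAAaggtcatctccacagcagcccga

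CACCTG occurred on some strand in 5 of the 6 keratin windows and was missing from that of Krt20, whereas 16.5% of the 22630 windows of all genes held it. Counted from the gene start, it began at base -111 in Krt8, -214 in Krt18, -44 in Krt7, -26 in Krt19 and -242 in Krt23. GGGCGG, present in 43% of all windows, occurred 4 times before Krt7 and 3 times before Krt19 and in no other keratin window. TATAAA, present in 12% of all windows, was found only before Krt20, at base -29. No keratin window held TGANTCA, found in 6.12% of all windows, or the p53 decamer, found in 6.34%. The pair Krt8 and Krt18 thus shared only the CACCTG letters, and Krt7 and Krt20 shared no match. A match describes letters in the window and is no evidence of binding. The windows end at the gene starts of the files, and the first exon annotated by GENCODE begins 201 bases further upstream for Krt19 and 27 bases further upstream for Krt23.

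Each tumor gave between 19845923 and 33137609 reads counted on genes, so that even the scarcest value, Krt23 in plus-dox tumor 2, rested on 34 counts. Trp53, which sums reads of the transgene and of the resident gene, host cells included, stood at 47.7 ± 7.3 RPKM without dox, 48.5 ± 6.4 RPKM on dox and 44.0 ± 1.7 RPKM after its removal (SD, n = 4), so its level did not separate the labels. By PCR and sequencing, the study found only mutant p53 DNA in KCip53 lines and reported the wild-type sequence as lost. Its dsRed staining, read as a sign of the transgene, was absent from no-dox tumors, present in plus-dox tumors and seen in fewer cells of off-dox tumors. Reads on genes made up 88.4 to 89.4% of mapped reads in no-dox tumors, against 82.2 to 87.1% under continued dox and 81.1 to 85.8% after its removal, a difference that ran with the groups. In plus-dox tumor 2 and off-dox tumor 4, the summed level of 18 epithelial genes other than keratins was 87.0 and 212 RPKM, against 359.8 to 1329 RPKM in the other 10 tumors. RPKM, reads per kilobase of exon scaled to the mapped reads, allows levels of different genes to be compared, and results that rest on these tumors are given with and without them.

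The 6 genes supplied nearly all keratin RNA of these tumors. Of the summed RPKM of 51 keratin genes, they made up 96.0 to 99.3% per tumor. By mean RPKM over the 12 tumors, Krt18 (684.7 RPKM) and Krt8 (673.5 RPKM) ranked first and second, and among all 22630 genes they ranked 96 and 100. Krt19 followed at 227 RPKM and Krt7 at 153 RPKM, then Krt20 at 19.6 RPKM. Krt14, a keratin of basal stratified epithelium that is not a member, came between Krt20 and Krt23 at 18.4 RPKM, and Krt23 stood at 12.8 RPKM.

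The order of levels was nearly fixed within a tumor. Krt8 and Krt18 each exceeded Krt19 in 12 of 12 tumors, Krt19 exceeded Krt7 in 12 of 12, Krt7 exceeded Krt20 in 12 of 12 and Krt20 exceeded Krt23 in 11 of 12. The neighbours Krt8 and Krt18 changed places between groups. Krt8 was the higher of the pair in 4 of 4 no-dox tumors, in 1 of 4 plus-dox tumors and in 0 of 4 off-dox tumors. Across tumors, the ranges of all neighbours in the order of mean levels overlapped, those of Krt8 and Krt19 only through off-dox tumor 3 for Krt8 and those of Krt7 and Krt20 only through plus-dox tumor 2 for Krt7. Krt18 varied least over the 12 tumors, with a coefficient of variation of 22.3%, followed by Krt8 at 32.3% and Krt19 at 35.8%. The scarcer Krt20 (47.4%), Krt7 (50.5%) and Krt23 (65.2%) varied more.

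**Figure D1:**
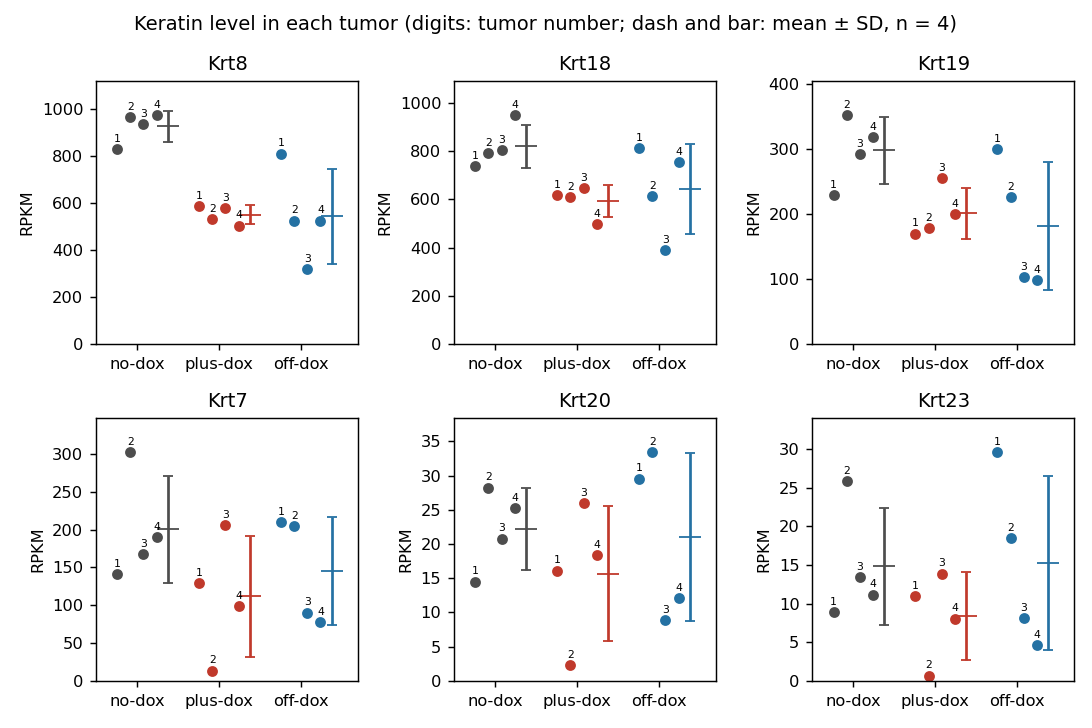
RPKM (vertical axes, each from 0) of the 6 keratins in each tumor, by group (no-dox, plus-dox, off-dox, 4 tumors each), with points numbered by tumor and the mean ± SD beside them. Krt8 and Krt18 lie lower in the 4 plus-dox than in the 4 no-dox tumors without overlap, and plus-dox tumor 2 has the lowest point for Krt7, Krt20 and Krt23.

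The first question was how keratin RNA differed between tumors given dox, the inducer of mutant p53, throughout growth and tumors never given it, and the Trp53 level above did not itself show the induction. All 6 keratins had lower fitted levels in plus-dox than in no-dox tumors, and for the abundant pair Krt8 and Krt18 the tumors did not overlap, but none passed the test across all genes. Krt8 stood at 0.599 times and Krt18 at 0.728 times its no-dox level. The median log2 fold change of the 6 was -0.65, against 0.013 for the 17561 genes tested. The edgeR quasi-likelihood test called 0 of 6 keratins (Benjamini-Hochberg adjusted p under 0.1, change over 1.5-fold, mean over 0.25 RPKM), as it called 0% of all genes in this comparison. At an unadjusted p under 0.05, it picked 1 keratin, Krt8, and 13.7% of all genes. DESeq2, with or without moderated fold changes, and limma-voom each called 1 keratin, again Krt8, and 0.729%, 0.512% and 0.638% of all genes, respectively.

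Krt8 gives type II subunits for the main filament pair. In no-dox tumors 1 to 4 it measured 829.6, 966, 935 and 973 RPKM, and in plus-dox tumors 1 to 4 it measured 588, 532, 579 and 504 RPKM. The groups were separated by a wide gap, and the spread within each was small, with means of 926 ± 66 and 550.4 ± 39.7 RPKM (SD, n = 4). The log2 fold change was -0.74 (SE 0.22), with an edgeR adjusted p of 0.32. An exact two-sided permutation test on log2 CPM gave p = 0.029, the smallest that 70 arrangements of 4 against 4 tumors allow. The adjusted p was 0.086 by DESeq2, 0.091 by DESeq2 with moderated fold changes and 0.098 by limma-voom, which put Krt8 just inside the limit. Over all settings tried, it ranged from 0.086 to 0.55 and the log2 fold change from -0.81 to -0.62.

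Krt18 is the type I partner of Krt8. It measured 738, 791, 803 and 947 RPKM in no-dox tumors 1 to 4 and 616, 608, 647 and 497 RPKM in plus-dox tumors 1 to 4. The groups again did not overlap, with a narrower gap than for Krt8. The log2 fold change was -0.46 (SE 0.21, edgeR adjusted p = 0.37), and the exact permutation p was 0.029. Separation by itself was not rare. Of all genes tested, 7.77% had RPKM ranges that did not overlap between these groups and 3.46% did so with the lower range in plus-dox tumors, against 2 of 6 keratins.

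Krt19, the type I keratin of ducts, came close to the same pattern. No-dox tumors 1 to 4 measured 229.9, 352, 293 and 319 RPKM and plus-dox tumors 1 to 4 measured 170.4, 179, 256 and 200.5 RPKM. The groups overlapped only because plus-dox tumor 3 exceeded no-dox tumor 1. The log2 fold change was -0.55 (SE 0.32, edgeR adjusted p = 0.45), with an exact permutation p of 0.057.

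The remaining members spread widely within each group. Krt7, the type II keratin of ducts, measured 141, 303, 167 and 189.7 RPKM in no-dox tumors 1 to 4 and 129, 13.5, 206 and 98.6 RPKM in plus-dox tumors 1 to 4. The groups overlapped, and the log2 fold change was -0.81 (SE 0.60, edgeR adjusted p = 0.54). Plus-dox tumor 2 lay far below every other tumor, and the fold change without it and off-dox tumor 4 was -0.45 (SE 0.36). Leaving out single tumors moved it from -1.34 (without plus-dox tumor 3) to -0.44 (without plus-dox tumor 2).

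Krt20, the keratin of gut surface cells, measured 14.5, 28.2, 20.8 and 25.3 RPKM in no-dox tumors 1 to 4 and 16.1, 2.28, 26.0 and 18.4 RPKM in plus-dox tumors 1 to 4. Krt23 measured 8.85, 25.9, 13.4 and 11.2 RPKM in no-dox tumors and 10.9, 0.674, 13.9 and 8.05 RPKM in plus-dox tumors in the same order. For both genes the groups overlapped and plus-dox tumor 2 was lowest. The log2 fold changes were -0.48 (SE 0.59, edgeR adjusted p = 0.70) for Krt20 and -0.80 (SE 0.72, edgeR adjusted p = 0.61) for Krt23. Without the 2 tumors poor in epithelial RNA they were -0.13 (SE 0.39) and -0.42 (SE 0.43), and without plus-dox tumor 3 they were -0.89 (SE 0.63) and -1.21 (SE 0.80), so the size of these differences rested on single tumors.

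**Figure D2:**
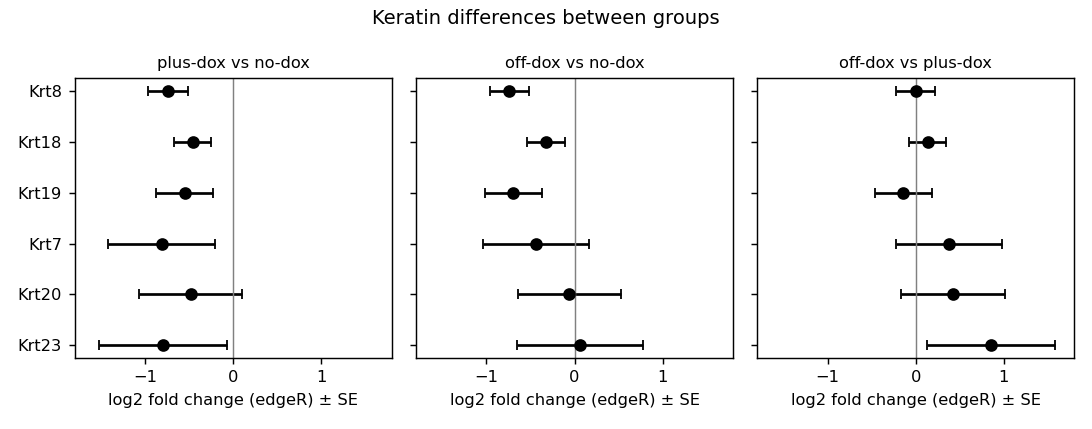
Log2 fold changes from edgeR (horizontal axis) with bars of ± 1 SE for the 6 keratins (vertical axis) in plus-dox against no-dox, off-dox against no-dox and off-dox against plus-dox tumors, 4 tumors per group. Krt8 sits at -0.74 with a short bar against no-dox tumors in both of the first panels, and the bars of Krt7, Krt20 and Krt23 are the widest.

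The second question was how tumors compared with never-exposed ones after 3 days without dox. Krt8 again had a fitted level of 0.599 times and Krt19 of 0.618 times that of no-dox tumors, whereas Krt20 and Krt23 hardly differed. The median log2 fold change of the 6 was -0.38, against 0.0072 for all genes, with 5 keratins lower and 1 higher. The edgeR test called 0 of 6 keratins here, while it called 1.34% of all genes and 0.307% as lower in off-dox tumors. At an unadjusted p under 0.05 it picked 1 keratin, Krt8, and 20.4% of all genes, and DESeq2 without moderated fold changes, DESeq2 with them and limma-voom called Krt8 as before, beside 3.50%, 2.25% and 3.65% of all genes. Both comparisons against no-dox tumors use the same 4 control tumors, so the like value for Krt8 in both is not independent.

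Off-dox tumors 1 to 4 held 809.6, 525, 318 and 525 RPKM of Krt8. On the RPKM scale each was below the lowest no-dox tumor, by a small margin for off-dox tumor 1, and 11.4% of all genes had ranges that did not overlap, 6.40% with the lower range in off-dox tumors, against 1 of 6 keratins. On log2 CPM that margin disappeared, as off-dox tumor 1 stood at 10.73 and no-dox tumor 1 at 10.71. The log2 fold change was -0.74 (SE 0.22), with an edgeR adjusted p of 0.12 and an exact permutation p of 0.057. The adjusted p was 0.027 by DESeq2, 0.028 with moderated fold changes and 0.053 by limma-voom, and it ran from 0.027 to 0.26 over all settings.

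Off-dox tumor 1 was the one tumor whose omission changed a keratin call. When it was left out, edgeR called both Krt8 (log2 fold change -0.98, SE 0.19, adjusted p = 0.034) and Krt19 (-1.04, SE 0.30, adjusted p = 0.075). In that fit the calls over all genes grew as well, from 235 to 789, or from 1.34% to 4.51% of those tested. With all tumors, Krt19 stood at 301, 226, 103 and 98.1 RPKM in off-dox tumors 1 to 4, with a log2 fold change of -0.69 (SE 0.32, edgeR adjusted p = 0.25). Its off-dox tumors 3 and 4 lay below every other tumor, and off-dox tumor 1 lay within the no-dox range.

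Krt18 measured 811, 614, 391 and 752 RPKM in off-dox tumors 1 to 4. Tumors 1 and 4 lay within the no-dox range and the log2 fold change was -0.32 (SE 0.21, edgeR adjusted p = 0.40). Krt7 measured 209.6, 205, 90.2 and 77.5 RPKM in the off-dox tumors, which split into a higher and a lower pair, with a log2 fold change of -0.43 (SE 0.60, edgeR adjusted p = 0.71). The same split was seen in Krt20, at 29.6, 33.4, 8.92 and 12.1 RPKM, and in Krt23, at 29.6, 18.5, 8.15 and 4.60 RPKM. Against no-dox tumors their log2 fold changes were -0.060 (SE 0.58, edgeR adjusted p = 0.96) and 0.060 (SE 0.72, edgeR adjusted p = 0.97). Their direction was not stable, since Krt20 stood at 0.13 without plus-dox tumor 2 and off-dox tumor 4, and Krt23 ran from -0.48 to 0.45 as single tumors were left out.

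The third question was whether 3 days of dox removal shifted keratin levels from those under continued dox. The edgeR test called 0 of 6 keratins and 0% of all genes, and no keratin was below an unadjusted p of 0.05, compared with 3.06% of all genes. DESeq2 without and with moderated fold changes called no keratin either and 0.0342% and 0.0228% of all genes, and limma-voom called 0 keratins and 0% of all genes. The smallest difference was that of Krt8, with a log2 fold change of 0.00060 (SE 0.22) between means of 544 and 550.4 RPKM. Krt18 stood at 0.13 (SE 0.21) and Krt19 at -0.14 (SE 0.32). Krt7 (0.38, SE 0.60), Krt20 (0.42, SE 0.59) and Krt23 (0.86, SE 0.72) were higher in off-dox tumors by less than 1.5 times their SE, and the edgeR adjusted p was 1 for each of the 6. The spread over tumors was too wide to set close limits on the last 3 genes. The RPKM ranges overlapped for all 6 keratins, while 1.49% of all genes did not overlap.

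Summed over the 6 genes, keratin RNA reached 2281 ± 239 RPKM in no-dox tumors, 1480 ± 191 RPKM in plus-dox tumors and 1550 ± 523 RPKM in off-dox tumors (SD, n = 4). The no-dox tumors lay between 1962 and 2466 RPKM and the plus-dox tumors between 1327 and 1728 RPKM, without overlap, and the off-dox tumors spread from 919 to 2191 RPKM. As the tumors were sequenced in bulk, fewer epithelial cells and less keratin RNA per cell cannot be told apart from these values. The study stained tumors of KCip53 cells for CK19, the protein of Krt19, and reported that epithelial prevalence did not differ with or without dox. How that protein staining relates to the RNA levels given here was not tested. The median log2 fold change of the 18 other epithelial genes was -0.50 in plus-dox and -0.65 in off-dox against no-dox tumors, with 12 of 18 and 15 of 18 lower. In all 3 comparisons edgeR, DESeq2 and limma-voom each called 0 of the 18. An unadjusted edgeR p under 0.05 was reached by 2 of 18 in plus-dox against no-dox tumors, beside 13.7% of all genes, by 0 of 18 in off-dox against no-dox tumors, beside 20.4%, and by 4 of 18 in off-dox against plus-dox tumors, beside 3.06%. The first 2, the scarce Grhl2 (log2 fold change 3.84, SE 1.10) and Ap1m2 (3.92, SE 1.30), were higher in plus-dox tumors, against the direction of the list, and the 4 were lower in off-dox than in plus-dox tumors.

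Ratios within a tumor do not depend on how libraries are scaled. The ratio of Krt8 to Krt18 was 1.13 ± 0.08 in no-dox tumors, 0.934 ± 0.062 in plus-dox tumors and 0.841 ± 0.124 in off-dox tumors (SD, n = 4). The 4 no-dox tumors, from 1.03 to 1.22, lay above the plus-dox tumors, from 0.875 to 1.01, and above the off-dox tumors, from 0.698 to 0.998. Off-dox tumor 4 had the lowest ratio, with Krt18 near the no-dox mean and Krt8 well below it. The summed classes, in which Krt8 and Krt18 weigh most, followed the same course. The summed type II keratins, mostly Krt8, came to 0.977 ± 0.068 times the summed type I keratins in no-dox tumors, 0.809 ± 0.082 times in plus-dox tumors and 0.795 ± 0.073 times in off-dox tumors. The no-dox range, from 0.892 to 1.06, lay above both others, whose highest values were 0.881 and 0.870. No test was made of these ratios, which were formed after the values of Krt8 had been seen. The share of reads on genes, given above, separated the same groups, and its part in the ratios was not tested.

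**Figure D3:**
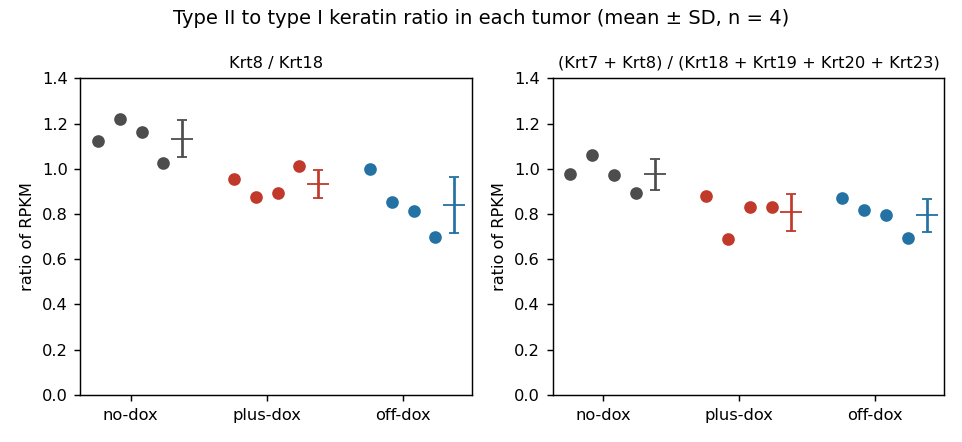
Ratio of Krt8 to Krt18 RPKM (left) and of summed type II to summed type I keratin RPKM (right) in each tumor, by group, with mean ± SD (n = 4) and vertical axes from 0. The no-dox tumors lie above all plus-dox and off-dox tumors in both panels, by a small margin.

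Krt8 made up 40.7 ± 1.6% of the summed keratin level in no-dox tumors, 37.4 ± 2.7% in plus-dox tumors and 34.9 ± 2.0% in off-dox tumors. Krt18 made up 36.0 ± 2.8%, 40.2 ± 3.8% and 42.2 ± 6.5% in the same order. Krt19 held between 6.68% and 15.1% of the sum in all tumors, and Krt20 and Krt23 never exceeded 2.06% and 1.35%. Krt7 held 5.27 to 12.6% in 11 tumors and 1.01% in plus-dox tumor 2.

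That tumor parted the 6 keratins into groups. In plus-dox tumor 2, Krt7, Krt20 and Krt23 were at their lowest of all 12 tumors, at -3.8, -3.2 and -4.23 log2 CPM relative to their no-dox means. Krt8, Krt18 and Krt19 were at -0.774, -0.403 and -0.701 relative to theirs, within the range of the other plus-dox tumors. The ratio of Krt7 to Krt19, both typical of ducts, was 0.076 there and 0.492 to 0.906 in the other tumors. Epcam, an epithelial surface adhesion protein, was at 7.76 RPKM in this tumor and at 40.9 to 388 RPKM in the others, and Cdh1, which encodes E-cadherin, was at 22.1 RPKM against 42.1 to 191 RPKM. Vim, the intermediate filament of mesenchymal cells, was at 1756 RPKM against 720 to 1041 RPKM elsewhere. The 6 keratins together reached 15.3 times the summed level of the 18 other epithelial genes in this tumor, 6.92 times in off-dox tumor 4 and 1.86 to 3.57 times in the other 10.

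**Figure D4:**
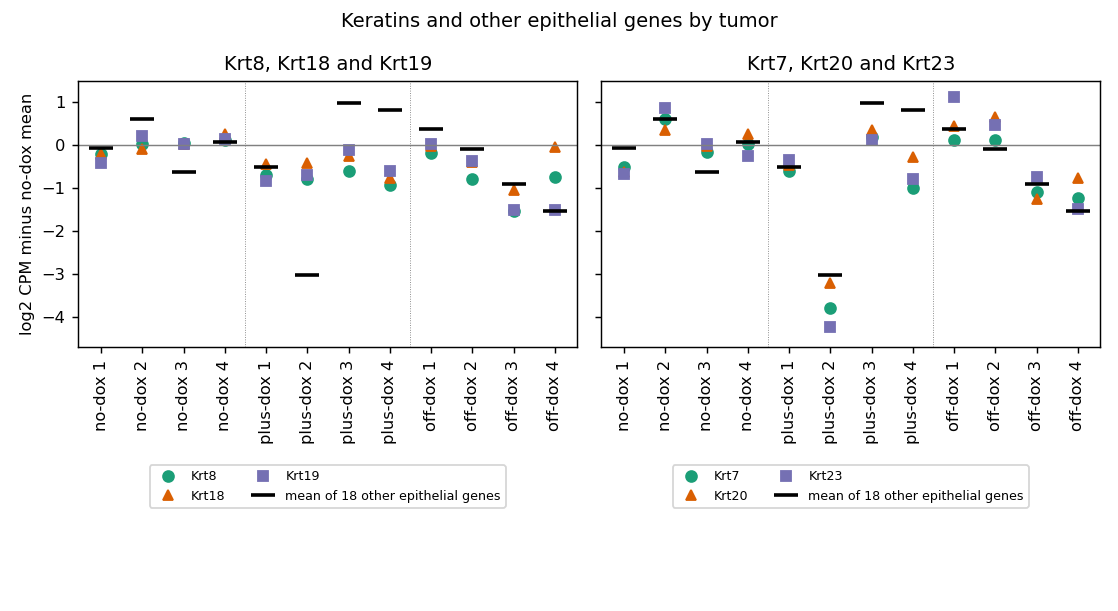
Log2 CPM minus the no-dox mean (vertical axis) in each of the 12 tumors (horizontal axis) for Krt8, Krt18 and Krt19 (left) and for Krt7, Krt20 and Krt23 (right), with black dashes for the mean of the 18 other epithelial genes. In plus-dox tumor 2, Krt7, Krt20 and Krt23 drop with the epithelial genes to between -3.2 and -4.23, and Krt8, Krt18 and Krt19 stay between -0.774 and -0.403.

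Across the 12 tumors, Krt7, Krt20 and Krt23 ran together, with Pearson's r of log2 CPM of 0.963 for Krt7 and Krt20, 0.970 for Krt7 and Krt23, and 0.942 for Krt20 and Krt23. This set joins a type II with type I genes from another chromosome. Krt8 and Krt18 had r = 0.895, Krt8 and Krt19 had r = 0.826, and Krt18 and Krt19 had r = 0.621. Between the sets r was lower, from 0.258 (Krt18 and Krt23) to 0.470 (Krt7 and Krt8), with Krt19 between them at 0.508 to 0.557 with Krt7, Krt20 and Krt23. The points share libraries and the groups, and plus-dox tumor 2 weighs heavily. Without it and off-dox tumor 4, r was 0.778 to 0.853 within Krt7, Krt20 and Krt23, 0.957 for Krt8 and Krt18, and 0.904 for Krt8 and Krt19, while the sets approached each other, with r of 0.465 (Krt8 and Krt23) to 0.756 (Krt7 and Krt18) and, for Krt19 with Krt7, 0.846.

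**Figure D5:**
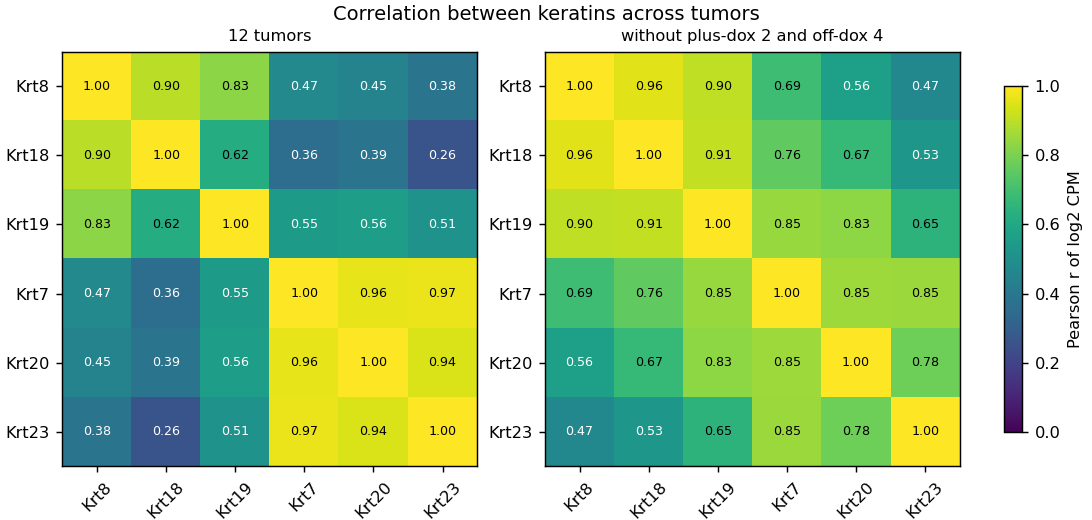
Pearson's r of log2 CPM between the 6 keratins over all 12 tumors (left) and over 10 tumors without plus-dox tumor 2 and off-dox tumor 4 (right), on a colour scale from 0 to 1. Krt7, Krt20 and Krt23 form a block with r of 0.94 to 0.97 on the left, and the contrast between blocks is weaker on the right.

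The relation to other epithelial genes divided the members in the same way. With the mean log2 CPM of the 18 genes, r over 12 tumors was 0.860 for Krt20, 0.851 for Krt7, 0.836 for Krt23, 0.543 for Krt19, 0.304 for Krt8 and 0.111 for Krt18. Without the 2 tumors poor in epithelial RNA, the values were 0.562, 0.421, 0.317, 0.521, 0.233 and 0.221 in that order, so the close relation of Krt7, Krt20 and Krt23 to this mean rested largely on those tumors. This mean gives scarce genes the same weight as abundant ones. In plus-dox tumors 3 and 4 it stood 0.979 and 0.836 above its no-dox mean, although their summed levels were 685 and 626 RPKM. The summed level was 626 to 1329 RPKM in no-dox tumors, and the relation of the keratins to it was not tested.

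The search for genes alike to each keratin covered 14350 genes, from which the 6 keratins were then set aside. The genes whose log2 CPM followed each keratin most closely over the 12 tumors mostly differed from keratin to keratin, within the sets as well as between them. For Krt8 they were Ppap2c (r = 0.977), Bpnt1 (0.965), Snw1 (0.964), Dstn (0.955) and Csnk1a1 (0.953), and leaving out the 2 tumors changed r by little, with values of 0.952 to 0.984. For Krt18 they were Arf6 (0.938), Slc22a4 (0.923), Stx7 (0.916), Atg4b (0.913) and Pvrl3 (0.912). For Krt19 they were Neu1 (0.922), Hs3st1 (0.919), Cd164 (0.914), Lima1 (0.912) and Tnfrsf11b (0.910).

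For Krt7 the 5 genes most alike were Itgb6 (r = 0.974), Wnt7a (0.969), Gpa33 (0.967), Cblc (0.966) and Dsg2 (0.966). For Krt20 they were Gpa33 (0.976), Dsg2 (0.963), Apob (0.958), S100a14 (0.957) and Muc4 (0.945). For Krt23 they were Myo7b (0.979), Xkr9 (0.972), Cblc (0.971), Tnip3 (0.969) and Gm3336 (0.968). Gpa33 and Dsg2 appeared for both Krt7 and Krt20 and Cblc for both Krt7 and Krt23. No gene was shared between Krt20 and Krt23, or between any of Krt8, Krt18 and Krt19. For Krt7, Krt20 and Krt23, r without the 2 tumors lay between 0.767 (Krt20 and Muc4) and 0.968 (Krt23 and Myo7b).

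Keratin filaments are tied to desmosomes and hemidesmosomes by plakins and plakophilins, and edgeR called 0 of 15 such anchorage genes in each comparison, with 3 of 15 at an unadjusted p under 0.05 in plus-dox against no-dox tumors (13.7% of all genes), 3 of 15 in off-dox against no-dox tumors (20.4% of all genes) and 0 of 15 in off-dox against plus-dox tumors (3.06% of all genes), shares not far from those of all genes. DESeq2 without moderated fold changes called 1 in plus-dox against no-dox tumors (Dsc2, a desmosomal cadherin), and with them, and by limma-voom, 0 were called. Their median log2 fold change was -0.19 in plus-dox and -0.0059 in off-dox against no-dox tumors, and 0.11 in off-dox against plus-dox tumors. The most abundant were Itga6 at 77.2 RPKM, Jup at 42.8 RPKM and Itgb4 at 35.4 RPKM over all tumors. Plec, the linker plectin, was at 19.7 ± 1.8 RPKM in no-dox and 27.0 ± 3.8 RPKM in off-dox tumors without overlap (SD, n = 4), with a log2 fold change of 0.49 (SE 0.14) and an edgeR adjusted p of 0.11. It was the 1 of 15 anchorage genes whose ranges did not overlap in this comparison, beside 11.4% of all genes.

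Of 17 transcription factors known to act on keratin or epithelial genes, edgeR called 2, beside 1.34% of all genes, both higher in off-dox than in no-dox tumors. It called none of the 17 in the other comparisons, and DESeq2 and limma-voom called none there either. An unadjusted edgeR p under 0.05 was reached by 2 of 17 in plus-dox against no-dox tumors, beside 13.7% of all genes. It was reached by 2 of 17 in off-dox against plus-dox tumors, beside 3.06%, and by 6 of 17 in off-dox against no-dox tumors, beside 20.4%. Zeb1, a repressor of epithelial genes that binds CACCTG, rose from 9.01 ± 0.87 to 14.1 ± 2.1 RPKM (log2 fold change 0.67, SE 0.12, edgeR adjusted p = 0.079). Its relative Zeb2 rose from 8.32 ± 0.86 to 13.4 ± 3.0 RPKM (0.71, SE 0.19, edgeR adjusted p = 0.097). In plus-dox tumors Zeb1 was at 11.8 ± 1.0 RPKM and Zeb2 at 12.2 ± 2.6 RPKM, with log2 fold changes against no-dox of 0.40 and 0.56 that did not pass (edgeR adjusted p = 0.32 and 0.33). DESeq2 with moderated fold changes called the same pair in off-dox against no-dox tumors, beside 2.25% of all genes. DESeq2 without them and limma-voom called 3, beside 3.5% and 3.65% of all genes, adding Tfap2a (edgeR log2 fold change 0.60, SE 0.22, adjusted p = 0.17), an activator of epithelial genes. Zeb1 and Zeb2 are also expressed by stromal cells, and the median of the 17 was -0.079 in off-dox against no-dox tumors. The epithelial factor Elf3 was the most abundant at 41.8 RPKM, followed by Jun at 33.6 RPKM and Klf5 at 29.6 RPKM.

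Of 11 other intermediate filament genes, 1 was called, beside 1.34% of all genes. Synm, the muscle protein synemin, was higher in off-dox than in no-dox tumors (3.08 ± 1.36 against 1.45 ± 0.37 RPKM, log2 fold change 1.11, SE 0.30, edgeR adjusted p = 0.097). Vim, at 910.1 RPKM over all tumors, had a higher pooled mean than any keratin, although Krt8 exceeded it in 3 of 4 no-dox and 1 of 4 off-dox tumors. Its log2 fold change was 0.33 (SE 0.27) in plus-dox and 0.00091 (SE 0.27) in off-dox against no-dox tumors. The 12 keratins of stratified epithelia were scarce, with 9 tested. Their median log2 fold change was -1.13 in plus-dox and -1.24 in off-dox against no-dox tumors, with 8 of 9 and 7 of 9 lower. Lower levels were thus also seen outside the simple-epithelium keratins, in Krt14 and in scarcer genes. Krt10 (mean 2.81 RPKM) and Krt80 (2.50 RPKM) hardly differed from no-dox tumors. Their log2 fold changes were -0.023 and -0.0077 in plus-dox tumors and 0.19 and -0.19 in off-dox tumors. Apart from these and Krt14, the means were at most 0.651 RPKM. Of the 9, 1 was called, beside 1.34% of all genes: Krt14 was lower in off-dox than in no-dox tumors (9.38 ± 2.27 against 31.6 ± 14.0 RPKM, log2 fold change -1.72, SE 0.44, edgeR adjusted p = 0.090). These calls lay close to the limit. Zeb1, Zeb2 and Krt14 stayed called in 3 of 12 fits that each left out 1 tumor and Synm in 2 of 12, with adjusted p as high as 0.23, and each was lost without any one of the no-dox tumors, off-dox tumors 2, 3 or 4, or plus-dox tumors 3 or 4, and Synm also without plus-dox tumor 1.

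Markers of other cell types were summed by tumor, with calls by edgeR in any of the 3 comparisons, and their part in the keratin differences was not tested. Of all genes, edgeR called 1.34% in off-dox and 0% in plus-dox against no-dox tumors. In off-dox against no-dox tumors, DESeq2 without moderated fold changes, DESeq2 with them and limma-voom called 3.5%, 2.25% and 3.65% of all genes. In plus-dox against no-dox tumors they called 0.729%, 0.512% and 0.638%. Fibroblast markers summed to 1196 to 2144 RPKM in no-dox tumors, 1701 to 3200 RPKM under continued dox and 1384 to 1600 RPKM in off-dox tumors, with the highest sum in plus-dox tumor 2 and 0 of 9 genes called, whereas DESeq2 and limma-voom called Col1a1 in plus-dox against no-dox tumors and DESeq2 without moderated fold changes called Lum in off-dox against no-dox tumors. Skeletal muscle markers reached 10.7 to 181, 139 to 438 and 12.1 to 1205 RPKM in the same order, with 9 of 9 genes higher in both groups than in no-dox tumors and 1 of 9 called (Actn3, in off-dox tumors). DESeq2 without moderated fold changes called 4 of them in off-dox tumors (Myh4, Ckm, Mylpf and Actn3) and 2 in plus-dox tumors (Myh4 and Actn3) against no-dox tumors, with moderated fold changes it called Actn3 alone in off-dox tumors, and limma-voom called 0. Adipocyte markers reached 14.5 to 1110, 26.3 to 700.1 and 35.6 to 323 RPKM, with 0 of 8 called. Endothelial markers summed to 34.5 to 56.5 RPKM in no-dox tumors, 50.6 to 143 RPKM under continued dox and 45.1 to 65.5 RPKM after its removal. Of the 8, all 8 were higher in plus-dox than in no-dox tumors, 5 at an unadjusted edgeR p under 0.05 (13.7% of all genes), and 0 were called by edgeR or limma-voom and 1 (Cdh5) by DESeq2 in both forms. Macrophage markers spanned 1817 to 3655 RPKM over all tumors with 0 of 7 called. Neutrophil markers spanned 23.2 to 57.0 RPKM, with 2 of 5 called as higher in off-dox than in no-dox tumors (Csf3r and Cxcr2), and T and NK cell markers 1.21 to 8.57 RPKM, with 1 of 7 called in that direction (Nkg7). These T and NK cell markers were scarce in the immunodeficient hosts, with means of 0.033 (Cd3e) to 2.2 RPKM (Prf1), and which cells made them was not tested. DESeq2 and limma-voom also called Cxcr2 and Nkg7 as higher in plus-dox than in no-dox tumors. DESeq2 without moderated fold changes and limma-voom called Csf3r as higher there too. In off-dox against no-dox tumors DESeq2 called 3 of the 7 T and NK cell markers and limma-voom 2. Each of the 4 edgeR calls (Actn3, Csf3r, Cxcr2 and Nkg7) held in 3 of the 12 fits that left out 1 tumor.

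Markers of mammary epithelium, mesothelium and epidermis were read in the same way, since these tissues make keratins too. Mammary markers summed to between 0.149 and 3.83 RPKM with Csn1s1 listed at 0 in every tumor, and 0 of 2 tested were called. Keratinocyte markers summed to 12.5 to 53.9 RPKM, mostly from Krt14, which was the single one of 6 called. Mesothelial markers summed to 153 to 325 RPKM with 0 of 5 called, and almost all of that was Msln, also a known product of pancreatic tumor cells, at a mean of 241 RPKM. The other 4 mesothelial markers had means of 0.0268 (Lrrn4) to 2.64 RPKM (Upk1b).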

How the data were processed

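RNA from 12 bulk KCip53-1 tumors was sequenced with 50-bp reads and mapped by the authors to mm9 with TopHat (version 1.4.1) and Bowtie (version 0.12.8), per the submitters' processing notes and the study's methods. The deposited files give each gene an expected count, that is, base-wise coverage expressed in reads, with fractional values and no normalization, and an RPKM per exonic length and mapped reads, both counted by the authors without regard to strand. What was done with reads that map to several places is not given in the sources used here, so keratins, which have near-identical paralogs and processed copies, are uncertain to that extent. Counts were rounded and tested with edgeR (version 4.0.16): TMM, at least 10 counts summed over tumors, 1 fit of 3 groups without covariates, quasi-likelihood test, SE from the fold change and its F statistic. Genes were called at a Benjamini-Hochberg adjusted p under 0.1 over 17561 genes, a change over 1.5-fold, a length over 250 bp and a mean over 0.25 RPKM across both groups. Log2 CPM used a prior count of 2. Exact permutation tests (70 arrangements) were two-sided and are not adjusted over the 6 keratins and 3 pairs of groups. Alternatives were DESeq2 (version 1.42.0), limma-voom (limma version 3.58.1) with tumor quality weights, RLE scaling, other filters and prior counts, pairs fitted alone, the replicate number as a block and tumors left out. The fits were tested on simulated data.

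The members and all gene lists were chosen with earlier results of these data known. Named genes were the 6 keratins, the 5 genes most alike to each, and, of the lists on epithelial and keratin biology, genes called and the most abundant. For lists of other cell types only sums and called genes are given. Plec was named after its values were seen, and Krt14 as a neighbour in rank. Sequences were read from the mm9 genome. The genotype of the line is given in part, and the remainder is not reported here.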

Additional observations from a re-analysis of the deposited data

How the results depend on the processing

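The 6 keratins kept their direction in most of the settings tried: of 378 alternative log2 fold changes, 348 kept direction and side of the limit, 9 came to pass it and 21 changed sign. Against no-dox tumors, keratins called rose from 0 to 1 (Krt8) under DESeq2 without and with moderated fold changes and under limma-voom in both comparisons, and for off-dox tumors also to 1 with at least 10 counts in every tumor (Krt8 adjusted p = 0.093). As tumors were left out singly, 0 to 0 keratins were called in plus-dox and 0 to 2 in off-dox against no-dox tumors, the 2 without off-dox tumor 1. All genes called numbered 0 by edgeR in plus-dox against no-dox tumors, 128 by DESeq2, 90 with moderated fold changes, 112 by limma-voom and 0 to 3 as tumors were left out. In off-dox against no-dox tumors they numbered 235, and 615, 396 and 641 by the same tools, 122 without a filter, 365 with at least 10 counts in every tumor, 3 with the pair fitted alone, 471 without plus-dox tumor 2 and off-dox tumor 4, 0 at an adjusted p under 0.05 and 0 to 789 as tumors were left out. In off-dox against plus-dox tumors they numbered 0, and 6 by DESeq2, 4 with moderated fold changes and 0 to 1 as tumors were left out. Keratins without overlap in off-dox against no-dox tumors fell from 1 to 0 on log2 CPM with TMM or RLE, and single omissions gave 1 to 2 there and 2 to 4 in plus-dox against no-dox tumors. The exact p of Krt8 in off-dox against no-dox tumors was 0.029 on log2 (RPKM + 0.1).

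Signs changed only where the fold change was near 0. Krt20 in off-dox against no-dox tumors stood at 0.11 by limma-voom, 0.13 without plus-dox tumor 2 and off-dox tumor 4, and -0.38 to 0.20 as tumors were left out, and Krt23 at -0.48 to 0.45. In off-dox against plus-dox tumors Krt8 stood at -0.044 by limma-voom, -0.0042 without those 2 tumors and -0.24 to 0.19 as tumors were left out, and Krt19 at 0.010 without them and -0.48 to 0.055. The cause was not tested.

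Replicate numbers are shared between groups, but deviations of same-numbered tumors had a mean correlation of -0.091 over 12 pairs, against 0.045 over 36 pairs of other numbers, so the numbers were not taken to pair tumors. With that number fitted as a replicate block, 0 genes were called in off-dox against no-dox tumors, Krt23 there stood at -0.12 and Krt8 in off-dox against plus-dox tumors at -0.036. With 4 tumors a group and the spread of Krt7, Krt20 and Krt23, differences of the size seen for Krt8 could not be shown for them.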
